A study of Mus musculus with 18 samples.

Results

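The 10 genes followed here, of 12394 measured, mark hepatic stellate cells or encode the matrix they make, and were compared in mouse liver with and without the nuclear receptor FXR. They are the fibrillar collagen genes Col1a1, Col1a2 and Col3a1, the small leucine-rich proteoglycan genes Dcn and Lum, the receptor gene Pdgfrb, the secreted glycoprotein gene Reln, the protease inhibitor gene Timp1, and the filament and contractile genes Des and Acta2. Their probe sets were taken by gene symbol. The platform annotation gave them 16 of the 22690 probe sets: 4 genes had 1 probe set and 6 genes had 2. A gene with more than 1 probe set was read from the brighter of them, by its mean over the 18 arrays. The other is given in some comparisons for the collagen genes, Pdgfrb and Acta2.

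Livers came from male mice on a C57BL/6J background, aged 10 to 16 weeks, that were wild type (WT), lacked FXR in the whole body (whole-body FXR KO), or lacked it in hepatocytes (liver FXR KO). The liver FXR KO mice carried floxed Fxr alleles and an albumin-driven Cre, so their stellate, endothelial and Kupffer cells keep the gene. Each genotype received either the vehicle or GW4064, a synthetic FXR agonist, at 150 mg per kg by oral gavage as 2 doses, and the liver was taken 2 h after the last dose. Each of the 6 groups had 3 arrays, numbered in the labels without saying whether a number stands for 1 animal, so the p-values measure the spread between these samples. The methods published with the series give another GW4064 schedule and another array type than the labels, and the labels are followed here.

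Stellate cells lie between the hepatocytes and the sinusoidal endothelium, where they store vitamin A and wrap the sinusoids. After liver injury they turn into matrix-producing, contractile cells; platelet-derived growth factor acts on them through the receptor that Pdgfrb encodes, and TGF-β raises their collagen output. Portal fibroblasts and vascular smooth muscle share many of these genes. FXR is the bile acid receptor encoded by Nr1h4, and most of it in the liver is found in hepatocytes. In whole-liver RNA, fewer cells of a type and less RNA per cell cannot be told apart.

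Values are log2 expression after robust multi-array averaging (RMA), so a difference of 1 is a factor of 2. Nr1h4 itself read 8.83 to 9.39 in the WT arrays and 3.98 to 4.69 in the 12 arrays of both KO genotypes, so no array went against its genotype label. Array medians lay between 5.96 and 6.00. The widest spread of relative log expression was that of 2 arrays, WT GW4064 replicate 1 with an interquartile range of 0.255 and whole-body FXR KO GW4064 replicate 3 with 0.224, against a lowest value of 0.130. Among markers kept apart from the 10 genes, the stellate cell gene Cygb, a globin, had group means of 6.27 to 6.68. Lrat, the enzyme that esterifies retinol for storage, had group means of 3.83 to 4.16. Neither passed the test in any comparison. The Lrat means lay within or below the Nr1h4 range of the KO arrays, so its lack of a call does not show that it stayed unchanged. The choice of Cygb and Lrat was made with their values in view. Of the 10 further stellate cell markers measured, Pdgfra and Rgs5 did pass, both higher in whole-body FXR KO than in WT with GW4064.

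Across the 6 groups, 6 of the 10 genes differed by the moderated F test of limma (adjusted p under 0.05), namely Col1a1, Col1a2, Col3a1, Dcn, Lum and Pdgfrb. Of all genes tested, 6.08% passed the same test. Pdgfrb had the smallest adjusted p of the 10 (0.000559), followed by Col1a2 (0.00129). Reln was at 0.0912, Timp1 at 0.269, Acta2 at 0.478 and Des at 0.623. Left out 1 at a time, the arrays gave 5 or 6 of the 10 genes.

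**Figure D1:**
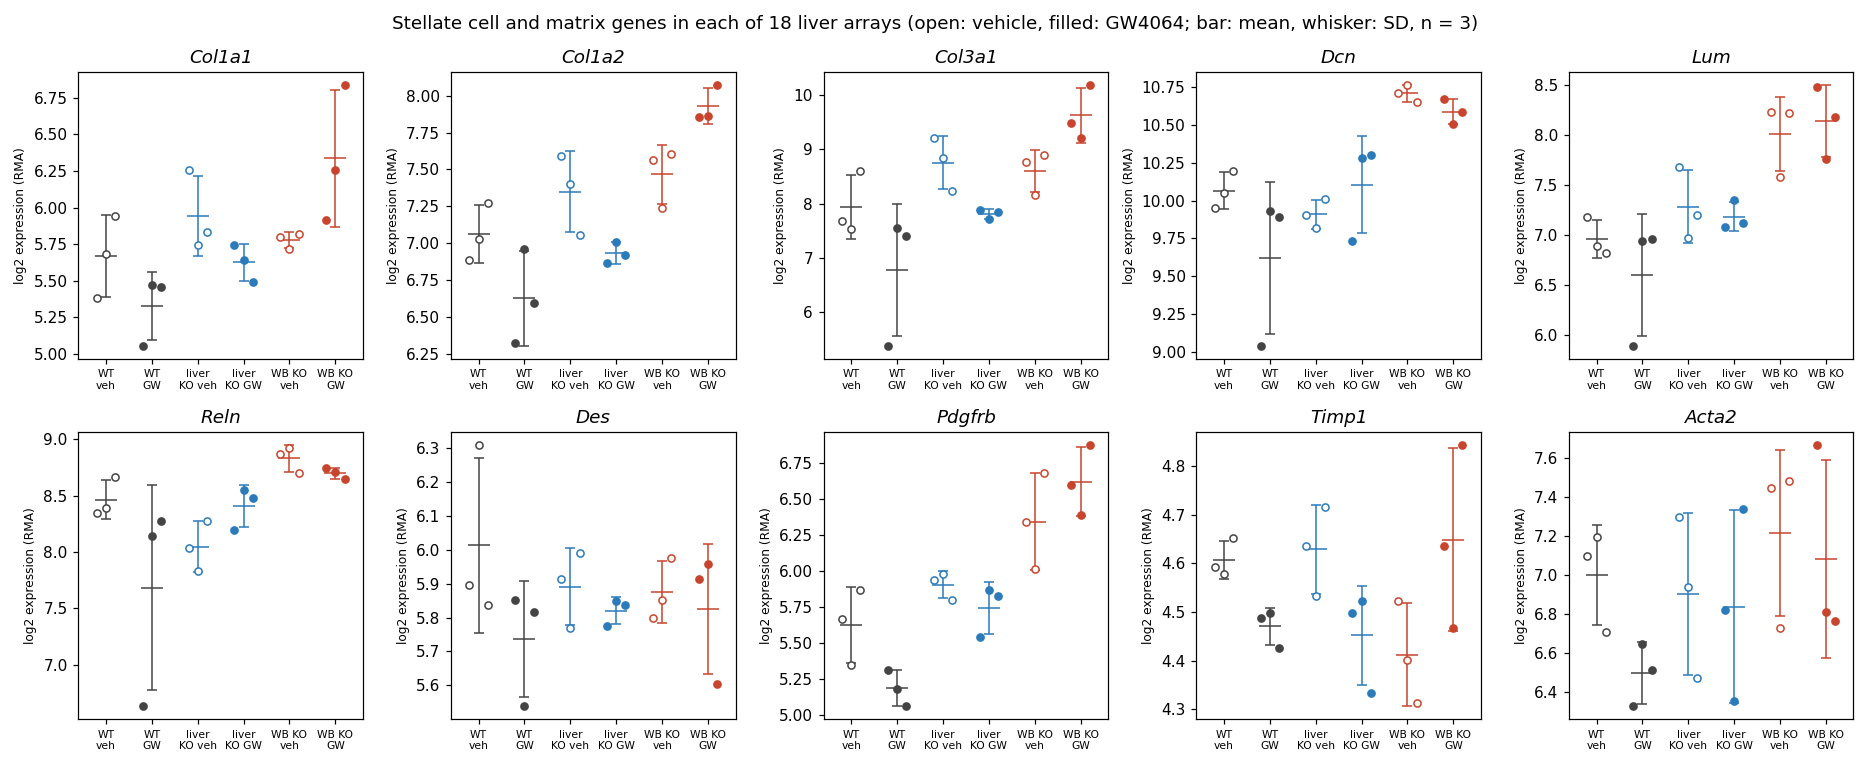
Log2 expression (vertical axes, RMA) of each of the 10 genes in the 6 groups (horizontal axes; veh, vehicle; GW, GW4064; WB, whole-body), with 1 point per array, open for vehicle and filled for GW4064, and the mean and SD of 3 arrays. The whole-body FXR KO arrays of Pdgfrb lie above all WT arrays, and WT GW4064 replicate 1, the leftmost point of its group, is the lowest of the 18 arrays for Col1a1, Col1a2, Col3a1, Dcn, Lum, Reln and Acta2.

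Col1a1 and Col1a2 encode the chains of type I collagen, the main fibre of scar tissue, and Col3a1 encodes type III collagen, the thinner reticular fibre laid down beside it. Col3a1 read 7.68, 7.53 and 8.61 in WT vehicle arrays and 5.37, 7.55 and 7.40 in WT GW4064 arrays. In liver FXR KO it read 9.20, 8.85 and 8.23 with vehicle and 7.87, 7.71 and 7.84 with GW4064. In whole-body FXR KO it read 8.77, 8.16 and 8.89 with vehicle and 9.50, 9.20 and 10.19 with GW4064. The whole-body FXR KO GW4064 arrays were thus the highest of their treatment, with no overlap with the other genotypes, while the vehicle arrays of the 3 genotypes overlapped. With GW4064, Col3a1 was 2.86 higher on the log2 scale in whole-body FXR KO than in WT (SE 0.45, 7.24-fold, adjusted p = 0.00146), and 2.16 higher without WT GW4064 replicate 1 (adjusted p = 0.00233).

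Col1a2 read 6.88, 7.03 and 7.27 in WT vehicle arrays and 6.32, 6.96 and 6.59 in WT GW4064 arrays. In liver FXR KO it read 7.59, 7.40 and 7.05 with vehicle and 6.86, 7.01 and 6.92 with GW4064. The whole-body FXR KO arrays read 7.56, 7.24 and 7.60 with vehicle and 7.86, 7.86 and 8.07 with GW4064. As for Col3a1, the 3 whole-body FXR KO GW4064 arrays stood above every other array. Against WT with GW4064 the difference was 1.31 (SE 0.16, 2.47-fold, adjusted p = 0.000194), or 1.15 without WT GW4064 replicate 1 (adjusted p = 0.00115), and against liver FXR KO with GW4064 it was 1.0 (SE 0.16, adjusted p = 0.00559). Col1a1 ranged from 5.06 in WT GW4064 replicate 1 to 6.84 in whole-body FXR KO GW4064 replicate 3, the 2 arrays of widest spread. Its group means with GW4064 were 5.33 ± 0.24 (SD, n = 3) in WT, 5.63 ± 0.13 in liver FXR KO and 6.34 ± 0.47 in whole-body FXR KO. For Col1a1 the whole-body FXR KO to WT difference with GW4064 was 1.01 (SE 0.20, adjusted p = 0.00687). Without the WT array of widest spread it was 0.87 (adjusted p = 0.0446), and without both of those arrays 0.62 (adjusted p = 0.101), so this call rests on them. The second probe set of each collagen gene, all of them dimmer, was also higher in whole-body FXR KO than in WT with GW4064, by 0.68 for Col1a1, 1.40 for Col1a2 and 1.01 for Col3a1, with p-values adjusted over all probe sets of 0.0267, 0.000961 and 0.00187.

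Col1a2 and Col3a1 had the highest correlation of any pair of the 10 genes over the 18 arrays (Pearson's r = 0.95, and 0.84 after the group means were removed; both share each array's RNA and normalization). Their promoters are shown because these genes varied together. Each is the 250 bases before the annotated transcription start in RefSeq on GRCm38.p6, read 5′ to 3′ on the strand of the gene, with matches to CAGAC (the SMAD element), CCAAT and GGGCGG (the Sp1 box) on either strand in capitals.
Col1a2, chr6:4505368-4505617, plus strand: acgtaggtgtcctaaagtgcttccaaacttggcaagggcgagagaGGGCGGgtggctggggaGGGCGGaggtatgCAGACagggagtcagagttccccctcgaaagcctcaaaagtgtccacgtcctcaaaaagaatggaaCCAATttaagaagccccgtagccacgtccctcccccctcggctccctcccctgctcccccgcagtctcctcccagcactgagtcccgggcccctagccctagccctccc
Col3a1, chr1:45311288-45311537, plus strand: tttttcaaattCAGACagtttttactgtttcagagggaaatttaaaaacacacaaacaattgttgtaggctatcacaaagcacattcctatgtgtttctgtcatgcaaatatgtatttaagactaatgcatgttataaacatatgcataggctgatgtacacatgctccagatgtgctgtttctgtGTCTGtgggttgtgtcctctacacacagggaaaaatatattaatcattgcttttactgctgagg
Col1a2 held 1 CAGAC match, 1 CCAAT match and 2 GGGCGG matches in a window of 62.0% G and C, and Col3a1 held 2 CAGAC matches alone in a window of 35.2% G and C, so the motif letters shared by these windows were those of CAGAC. None of the marked matches overlapped another. Promoters were matched for 6 of the 10 genes (Acta2, Col1a2, Col3a1, Des, Reln and Timp1), of which 3 held CAGAC, 2 held CCAAT and 4 held GGGCGG. Of 32536 mouse promoter windows of this length, 42.2% held CAGAC, 33.8% CCAAT and 33.0% GGGCGG. The single FXR hexamer AGGTCA was in 14.0% of all windows and in 0 of these 6, and its inverted repeat with 1 base between (IR1) was in 0.00615% of all windows and in 0 of the 6. TGANTCA, the AP-1 element (6.73% of windows), and the CArG box of smooth muscle genes (1.48%) also had 0 matches in the 6. These matches describe letters in the window and are not binding sites.

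Dcn encodes decorin and Lum encodes lumican, small proteoglycans that coat collagen fibrils and set their spacing; decorin also binds TGF-β. Dcn read 9.95, 10.05 and 10.19 in WT vehicle arrays and 9.04, 9.93 and 9.89 in WT GW4064 arrays. With hepatocyte deletion it read 9.90, 9.82 and 10.01 with vehicle and 9.73, 10.28 and 10.30 with GW4064. Those of whole-body FXR KO read 10.71, 10.76 and 10.65 with vehicle and 10.67, 10.50 and 10.59 with GW4064. All 6 whole-body FXR KO arrays were above the other 12. Dcn differed between whole-body FXR KO and WT by 0.96 with GW4064 (SE 0.19, adjusted p = 0.00615) and by 0.64 with vehicle (SE 0.19, adjusted p = 0.123). Without WT GW4064 replicate 1, the first of these was 0.67 (adjusted p = 0.0164).

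Lum read 7.18, 6.88 and 6.81 in WT vehicle arrays and 5.89, 6.94 and 6.96 in WT GW4064 arrays. The liver FXR KO arrays read 7.68, 6.96 and 7.20 with vehicle and 7.08, 7.35 and 7.12 with GW4064. Those of whole-body FXR KO read 8.22, 7.58 and 8.21 with vehicle and 8.48, 7.76 and 8.18 with GW4064. The whole-body FXR KO arrays did not overlap the WT arrays under either treatment, and 1 liver FXR KO vehicle array, at 7.68, lay within the whole-body FXR KO range. Lum was higher in whole-body FXR KO than in WT by 1.54 with GW4064 (SE 0.26, 2.91-fold, adjusted p = 0.00276), and its difference was 1.05 with vehicle (SE 0.26, adjusted p = 0.0700). The GW4064 difference was 1.19 without WT GW4064 replicate 1 (adjusted p = 0.0118). Dcn and Lum are neighbours on chromosome 10, the chromosome of Nr1h4, as the 26th and 27th measured genes from it. Among the 200 measured genes nearest to Nr1h4, 7% passed the test between whole-body FXR KO and WT with GW4064 and 3% with vehicle, against 4.64% and 1.14% of all genes. Between liver FXR KO and WT, 2% of them passed with GW4064 and 2.5% with vehicle, against 1.06% and 0.879% of all genes. The part of this neighbourhood in the Dcn and Lum values was not tested.

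Pdgfrb, the platelet-derived growth factor receptor of stellate cells and pericytes, read 5.67, 5.35 and 5.87 in WT vehicle arrays and 5.31, 5.18 and 5.06 in WT GW4064 arrays. Liver FXR KO arrays gave 5.94, 5.98 and 5.80 with vehicle and 5.54, 5.87 and 5.83 with GW4064. Those of whole-body FXR KO gave 6.34, 6.01 and 6.68 with vehicle and 6.60, 6.39 and 6.87 with GW4064. The WT GW4064 arrays were the 3 lowest of the 18, and all 6 whole-body FXR KO arrays stood above the other 12. Between whole-body FXR KO and WT the difference was 1.43 with GW4064 (SE 0.16, 2.70-fold, adjusted p = 0.000103) and 0.72 with vehicle (SE 0.16, 1.64-fold, adjusted p = 0.0423). Without WT GW4064 replicate 1 the first was 1.5 (adjusted p = 0.000424). The vehicle call was lost without WT vehicle replicate 1 (adjusted p = 0.0945) or 2 (0.179), and without whole-body FXR KO vehicle replicate 1 (0.124) or 3 (0.203). The other Pdgfrb probe set differed less, with differences of 0.41 with GW4064 (p adjusted over all probe sets = 0.0710) and 0.13 with vehicle (0.706), so the size of the Pdgfrb change depended on the probe set.

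Reln encodes reelin, a secreted glycoprotein best known for neuronal positioning and made in the liver by stellate cells. It read 8.34, 8.39 and 8.66 in WT vehicle arrays and 6.63, 8.14 and 8.28 in WT GW4064 arrays. Arrays of liver FXR KO read 8.03, 7.83 and 8.28 with vehicle and 8.19, 8.55 and 8.47 with GW4064. In whole-body FXR KO it read 8.87, 8.92 and 8.70 with vehicle and 8.74, 8.71 and 8.65 with GW4064. Whole-body FXR KO arrays were above the WT arrays of the same treatment, and the value 6.63 of WT GW4064 replicate 1 stood far below the rest. With GW4064 the difference of whole-body FXR KO from WT was 1.02 (SE 0.28, adjusted p = 0.0505), and without that array 0.49 (adjusted p = 0.0784). In 10 tested genes of the reelin pathway, receptors and adaptors, 0 passed the limma test in any comparison.

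Timp1, which encodes an inhibitor of matrix metalloproteases and is a common index of fibrogenesis, read between 4.31 and 4.84 over the 18 arrays. These readings overlapped those of Nr1h4 in the KO arrays (3.98 to 4.69), so Timp1 was read near the low end of the arrays. Its whole-body FXR KO to WT difference was 0.18 with GW4064 (SE 0.09, adjusted p = 0.312) and -0.19 with vehicle (SE 0.09, adjusted p = 0.375). Acta2, smooth muscle actin, the usual marker of activated stellate cells and of vessel walls, read between 6.33 and 7.66. Its differences were 0.58 with GW4064 (95% confidence interval -0.01 to 1.18, adjusted p = 0.272) and 0.22 with vehicle (adjusted p = 0.788). Des, the intermediate filament desmin of stellate and muscle cells, read between 5.54 and 6.31, with differences of 0.09 with GW4064 (95% confidence interval -0.17 to 0.35) and -0.14 with vehicle. The intervals of Des lay within a factor of 1.5 on either side of 0, whereas those of Acta2 did not.

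Put together by comparison, the livers of whole-body FXR KO and WT mice differed most with GW4064. Of the 10 genes, 6 were higher in whole-body FXR KO (Col1a1, Col1a2, Col3a1, Dcn, Lum and Pdgfrb), by 0.96 to 2.86 on the log2 scale, 0 were lower, and Reln, Acta2, Timp1 and Des did not pass. Over all genes, 4.64% passed in either direction and 2.63% were higher. For 8 of the 10 genes the whole-body FXR KO arrays lay above the WT arrays without overlap, against 8.4% of all genes, and the median difference was 1.01, against -0.02 over all genes. All 6 calls remained when any 1 of the 6 arrays compared was left out. They depended on the pooled spread of the 18 arrays: fitted on the 6 arrays compared alone, 2 passed (Col1a2 and Pdgfrb), and the methods' t-test gave these same 6 genes at an unadjusted p under 0.05 and 1.5 fold but 0 after Benjamini-Hochberg adjustment.

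With vehicle, 1 of the 10 genes passed between whole-body FXR KO and WT, Pdgfrb, against 1.14% of all genes. Of the 10, 5 were at an unadjusted p under 0.05, against 13.3% of all genes; 4 of these were higher and 1, Timp1, was lower (-0.19). Without overlap, 4 of the 10 were higher (Dcn, Lum, Pdgfrb and Reln), against 9.63% of all genes, and Timp1 was lower, and the median difference was 0.39. Fitted on the compared arrays alone, Dcn (adjusted p = 0.0154) and Lum (0.0336) passed and Pdgfrb did not (0.112), with 125 genes passing over all genes. The vehicle and GW4064 comparisons share no arrays. The 3 collagen genes were 0.11, 0.41 and 0.67 higher with vehicle for Col1a1, Col1a2 and Col3a1, and 1.01, 1.31 and 2.86 higher with GW4064.

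**Figure D2:**
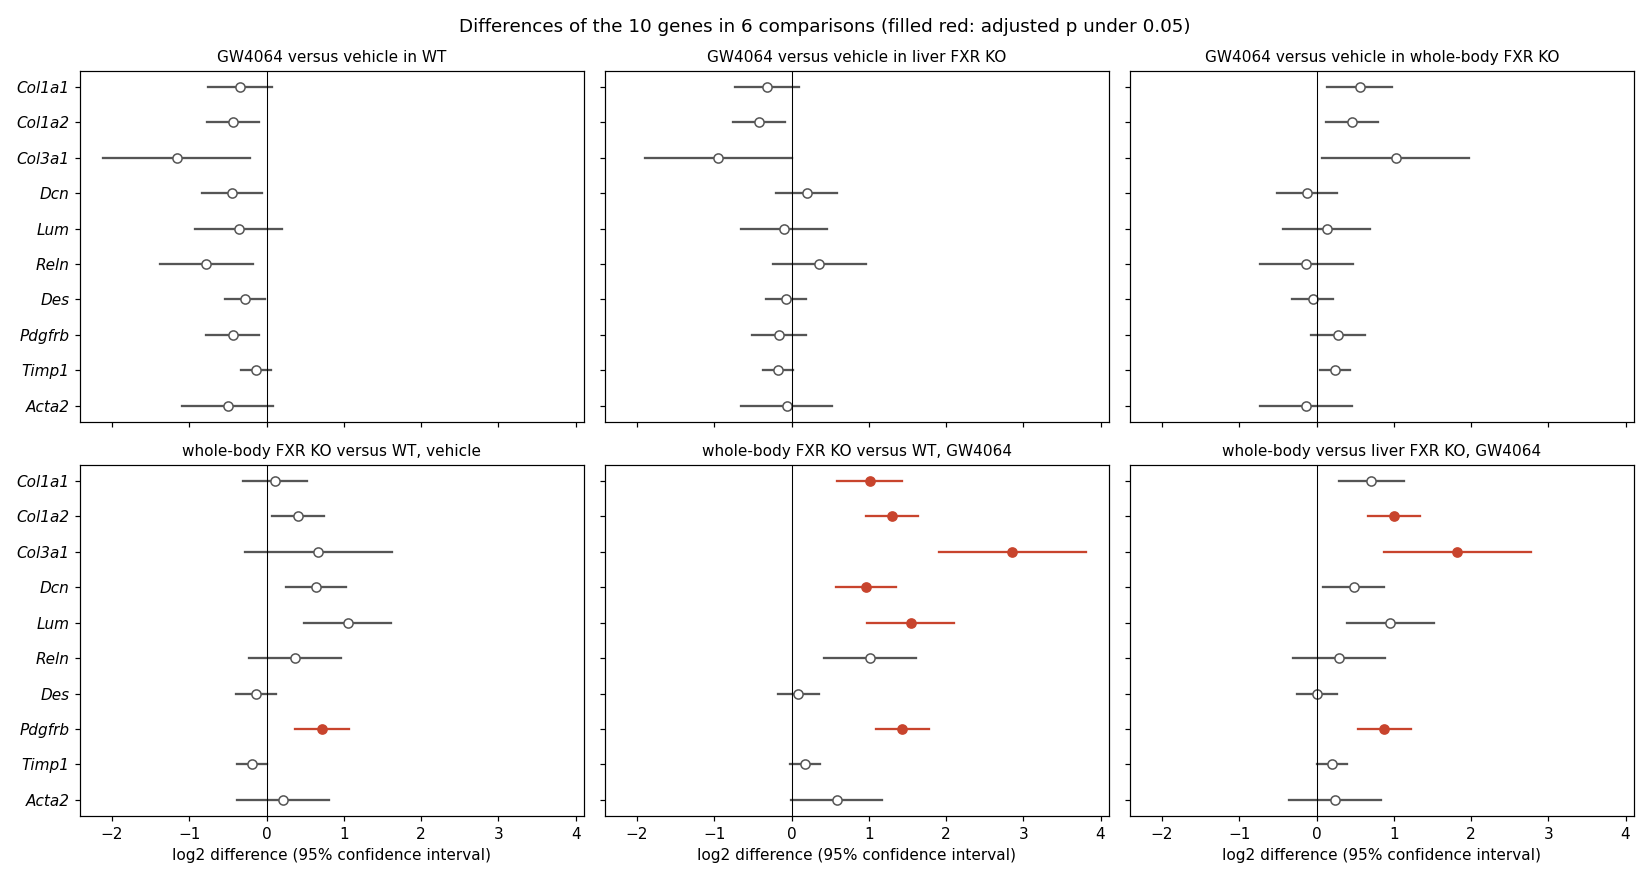
Log2 differences (horizontal axes) of the 10 genes (vertical axes) with 95% confidence intervals from limma in 6 comparisons, filled red where the adjusted p was under 0.05. The panel of whole-body FXR KO against WT with GW4064 holds 6 such genes, that of whole-body against liver FXR KO with GW4064 holds 3, and the 3 panels of GW4064 against vehicle hold 0.

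Between liver FXR KO and WT, no gene of the 10 passed under either treatment. With vehicle, 0 of the 10 genes passed the limma test and 0 were at an unadjusted p under 0.05, against 0.879% and 12.6% of all genes; the largest differences were 0.82 for Col3a1 (95% confidence interval -0.13 to 1.77) and -0.42 for Reln (-1.02 to 0.18). With GW4064, 0 of the 10 passed, against 1.06% of all genes, while 5 were at an unadjusted p under 0.05, against 14.0% of all genes, and 9 were above 0, with a median of 0.41. Those 5 were Col3a1 (1.03), Reln (0.72), Lum (0.58), Pdgfrb (0.56) and Dcn (0.48). Without WT GW4064 replicate 1 these differences were 0.33, 0.20, 0.23, 0.62 and 0.19, and the median was 0.20.

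The direct comparison of the KO genotypes sets loss of FXR in all cells against its loss in hepatocytes. With vehicle, 0 of the 10 genes passed between whole-body and liver FXR KO, against 0.678% of all genes, and 5 were at an unadjusted p under 0.05, against 12.2%. Dcn came nearest (0.80 higher in whole-body FXR KO, SE 0.19, adjusted p = 0.0664), with 3 arrays above 3, and Reln was 0.78 higher (adjusted p = 0.246). With GW4064, 3 of the 10 passed and all 3 were higher in whole-body FXR KO, against 1.8% of all genes in either direction. They were Col1a2 (1.0, adjusted p = 0.00559), Pdgfrb (0.88, adjusted p = 0.0123) and Col3a1 (1.82, adjusted p = 0.0489). Only Col1a2 passed without liver FXR KO GW4064 replicate 1 or without whole-body FXR KO GW4064 replicate 3. The other Pdgfrb probe set had a mean of 5.67 in each KO genotype with GW4064, so the Pdgfrb call rests on 1 probe set. The second probe set of Acta2 read 4.36 to 4.44 in liver FXR KO and 4.69 to 4.89 in whole-body FXR KO with GW4064, a difference of 0.41 with a p adjusted over all probe sets of 0.0209, while that of the main probe set (0.24) did not pass. These second readings lay near the low end of the arrays.

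GW4064 itself gave no called change in any genotype. In WT, 0 of the 10 genes passed the limma test (6 at an unadjusted p under 0.05, and 2 at that level by the methods' t-test), against 0.194% of all genes that passed and 12.6% at an unadjusted p under 0.05. All 10 were below 0, with a median of -0.44, and 5 (Acta2, Dcn, Pdgfrb, Reln and Timp1) had GW4064 arrays that lay below the vehicle arrays without overlap, against 7.64% of all genes. The differences ran from -1.16 for Col3a1 (SE 0.45, adjusted p = 0.290) and -0.78 for Reln (SE 0.28, adjusted p = 0.261) to -0.14 for Timp1. Without WT GW4064 replicate 1 the median was -0.27, and the differences of Col3a1 and Reln were -0.46 and -0.26, while that of Pdgfrb was -0.50. The second, dimmer probe set of Acta2, read near the low end of the arrays, went the other way, with means of 4.51 for vehicle and 4.70 for GW4064 in WT.

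In liver FXR KO, GW4064 gave 0 of 10 calls and 0% over all genes, with 1 gene, Col1a2 (-0.42), at an unadjusted p under 0.05 (5.02% of all genes) and a median of -0.13. In whole-body FXR KO it again gave 0 of 10 and 0% over all genes, with 4 genes at an unadjusted p under 0.05 (6.25% of all genes), all of them above 0: Col1a1 (0.56), Col1a2 (0.46), Col3a1 (1.02) and Timp1 (0.24). Without whole-body FXR KO GW4064 replicate 3 these were 0.31, 0.39, 0.74 and 0.14. The test of the difference between these effects gave 0 of 10 calls and 0% of all genes for whole-body FXR KO against WT, where all 10 differences were above 0 and 5 were at an unadjusted p under 0.05, against 8.21% of all genes (Col3a1 2.19, adjusted p = 0.424, and Col1a2 0.90, adjusted p = 0.402). Without both arrays of widest spread these were 1.20 for Col3a1 and 0.68 for Col1a2. It gave 0 of 10 and 0% of all genes for liver FXR KO against WT, with 2 at an unadjusted p under 0.05, against 7.46% of all genes, Reln (1.14) and Dcn (0.64), which were 0.62 and 0.35 without WT GW4064 replicate 1. It gave 0 of 10 and 0% of all genes for whole-body against liver FXR KO, with 4 at an unadjusted p under 0.05, against 4.87% of all genes. With 3 arrays per group, these tests thus did not show that the GW4064 effect on these genes differed between genotypes.

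Other matrix genes were read from lists chosen by function, each described by its counts beside the 4.64% of all genes that passed between whole-body FXR KO and WT with GW4064. Of 23 network, basement membrane and beaded collagen genes, 6 were higher and 0 lower, with Col4a1 (1.14, adjusted p = 0.000435), a basement membrane collagen, Col6a3 (1.30, adjusted p = 0.000955), a microfibril collagen, and Col14a1 (1.55, adjusted p = 0.00276), which binds fibril surfaces, at the smallest p-values. The list median was 0.01, and the other 17 genes did not pass. Of 6 other fibrillar collagen genes 1 was higher, Col5a2 (0.99, adjusted p = 0.00702), which starts type I fibrils. Of 18 collagen processing genes 3 were higher, the chaperone Serpinh1 (1.17), the propeptidase enhancer Pcolce (1.11) and the cross-linking oxidase Loxl1 (0.43), and 1 was lower, P4hb (-0.45), a subunit of prolyl hydroxylase that also acts as a disulfide isomerase. Of 10 other small leucine-rich proteoglycan genes 3 were higher, Bgn (0.79), Prelp (0.79) and Ogn (0.65).

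Among signalling genes, 2 of 5 PDGF pathway genes were higher with GW4064, the receptor Pdgfra (1.03, adjusted p = 0.000352) and the ligand Pdgfc (0.91, adjusted p = 0.0183). Pdgfra was also higher with vehicle (0.68, adjusted p = 0.0201). Of 19 TGF-β pathway genes 1 was higher, Ccn2 (1.94, adjusted p = 0.00341), a matricellular target of TGF-β, with a list median of 0.11. Of 19 matrix protease and inhibitor genes 4 were higher, the inhibitors Timp2 (0.82) and Timp3 (1.39) and the proteases Mmp2 (0.72) and Mmp13 (0.72). Timp1, read near the low end of the arrays, did not pass. Of 17 contractile and filament genes 2 were higher, Vim (1.35), vimentin, and Cald1 (0.31), caldesmon. Of 10 stellate cell markers outside the 10 genes 2 were higher, Pdgfra, counted above, and Rgs5 (1.61, adjusted p = 0.00200), a pericyte regulator of G protein signalling. As a median of differences from the WT vehicle mean, this list ran from 0.09 to 0.14 over the whole-body FXR KO GW4064 arrays. Over the WT GW4064 arrays it ran from -0.20 to -0.09. The 10 genes ran from 0.51 to 0.77 and from -0.71 to -0.20 in these arrays. Of 12 fibroblast markers 3 were higher, Gsn (1.96, adjusted p = 7.37e-05), Sparc (1.43) and Dpt (1.83). With vehicle, the genes of these lists that passed were Gsn (1.29) and Pdgfra, both higher, and P4ha2 (-0.66), a prolyl hydroxylase, which was lower.

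**Figure D3:**
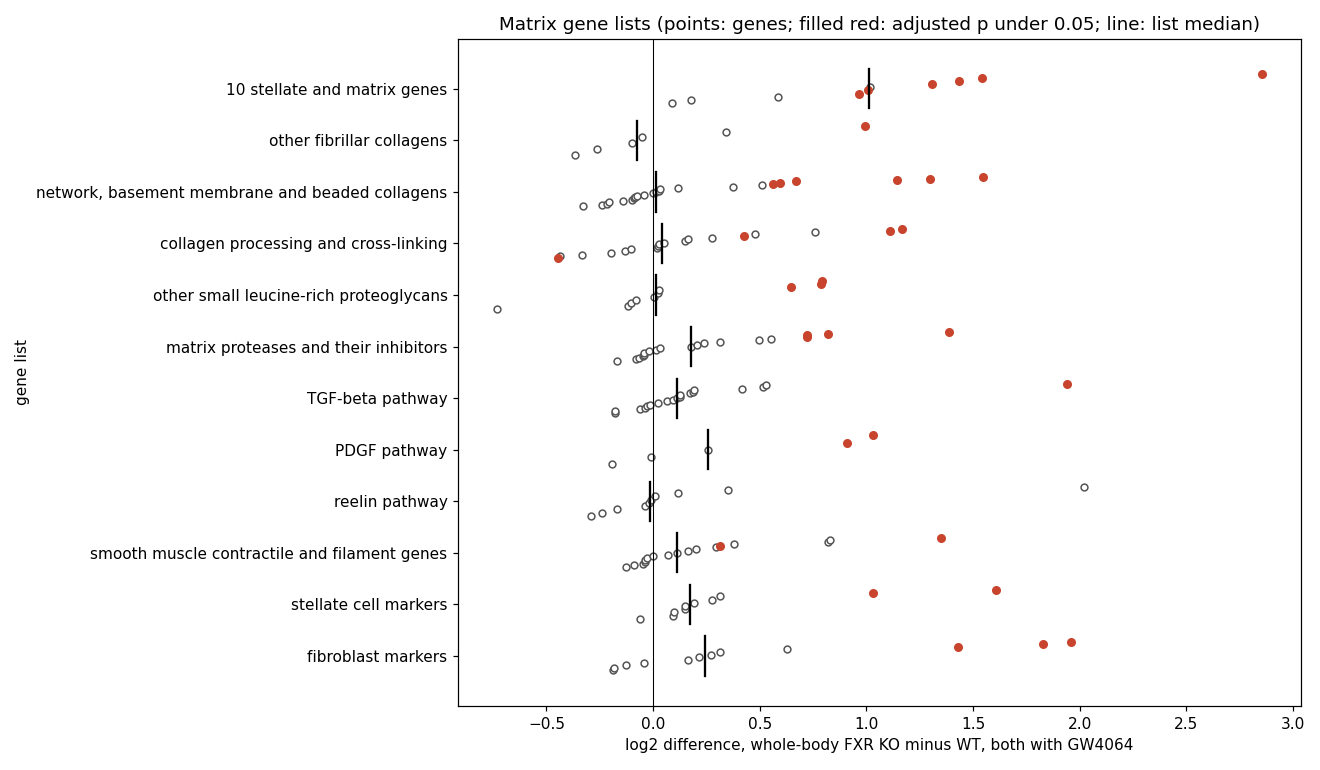
Log2 difference between whole-body FXR KO and WT with GW4064 (horizontal axis) for each measured gene of the 10 and of 11 other lists (vertical axis), filled red where the adjusted p was under 0.05, with the list median as a line. The median is 1.01 for the 10 genes and 0.01 for the network collagens, where 6 of 23 genes passed.

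Between liver FXR KO and WT, 0.879% of all genes passed with vehicle and 1.06% with GW4064. Genes of these lists that passed are named here, and their share of the lists was not counted. Col5a3, a minor fibrillar collagen, was lower with vehicle (-0.75, adjusted p = 0.00552) and with GW4064 (-0.67, adjusted p = 0.0107). The sheddase Adam10 was 0.35 higher with vehicle, and Rgs5 (1.40) and Timp3 (1.09) were higher with GW4064.

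Markers of other cell types varied along with some of these results. The 19 endothelial markers were all below 0 in WT with GW4064 against vehicle, with a median of -0.38 and 0 passing, and 18 of 19 were above 0 in whole-body FXR KO against WT with GW4064, with a median of 0.32 and 1 passing, Lyve1 (1.24), the hyaluronan receptor of sinusoids. With vehicle, 17 of 19 were above 0 in whole-body FXR KO against WT, with a median of 0.18 and 0 passing. Scored as the list median of differences from the WT vehicle mean, the endothelial list ran from -0.64 to -0.12 over the WT GW4064 arrays and from -0.27 to 0.02 over the whole-body FXR KO GW4064 arrays. It ran from -0.07 to 0.01 over the WT vehicle arrays and from 0.15 to 0.26 over the whole-body FXR KO vehicle arrays, without overlap. The 10 stellate and matrix genes ran from -0.71 to -0.20 and from 0.51 to 0.77 in the same arrays. WT GW4064 replicate 1 had the lowest value of its group for both lists. Kupffer cell and macrophage markers had a median of 0.48 in whole-body FXR KO against WT with GW4064, with 1 of 14 passing, Mpeg1 (1.10), and ran from -0.44 to 0.57 over the WT GW4064 arrays. Of 8 hepatocyte markers, Hnf4a (-0.43) and Pck1 (-0.61) were lower, and the list ran from -0.07 to -0.04 over the whole-body FXR KO GW4064 arrays. Of 20 acute-phase genes, 20 were above 0 in WT with GW4064 against vehicle (median 0.86), and 1, Lcn2, passed. The part of endothelial, macrophage and acute-phase genes in the results for the 10 genes, with vehicle or GW4064, was not tested. The cholangiocyte, lymphocyte, neutrophil and mesothelial marker lists had 0 genes that passed between whole-body FXR KO and WT by limma under either treatment, with medians from -0.23 to 0.09.

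**Figure D4:**
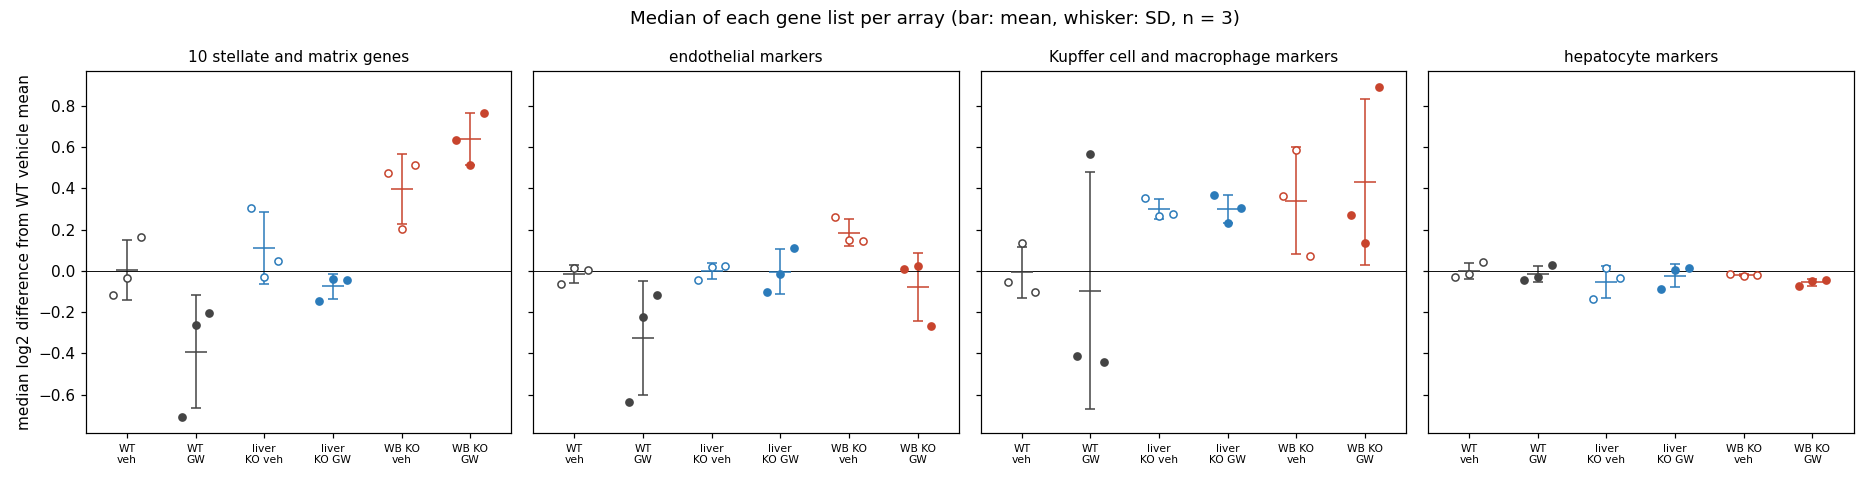
List median of log2 differences from the WT vehicle mean (vertical axis) per array for the 10 genes and for endothelial, Kupffer cell and macrophage, and hepatocyte markers, by group (horizontal axes; veh, vehicle; GW, GW4064; WB, whole-body), with the mean and SD of 3 arrays. The 10 genes ran from 0.51 to 0.77 in the whole-body FXR KO GW4064 arrays, where the endothelial markers ran from -0.27 to 0.02.

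Most of the 10 genes varied together over the arrays, in part through their group means, with Des and Timp1 the least alike to the others. Over the 18 arrays, Pearson's r was 0.92 between Dcn and Reln, 0.89 between Col1a2 and Pdgfrb, 0.88 between Col1a1 and Col3a1, and 0.86 between Dcn and Lum. After the group means were removed, r stayed at 0.92 between Dcn and Reln. It fell to 0.67 between Col1a1 and Col3a1, 0.59 between Dcn and Lum, and 0.45 between Col1a2 and Pdgfrb. Between Dcn and Pdgfrb it went from 0.74 to -0.0027, and between Reln and Pdgfrb from 0.54 to -0.20. WT GW4064 replicate 1 was the lowest array for both Dcn (9.04) and Reln (6.63), and its part in their r was not tested. With the group means kept, Des had r between -0.11 and 0.28 with the other 9 genes, and Timp1 reached 0.57 with Col1a1. The arrays share groups and normalization, so these are descriptions. Among 6864 other genes with a mean of at least 6, those whose pattern over the 18 arrays was most like the median profile of the 10 were Vim (r = 0.95), Fabp4 (0.93), Ahnak (0.93), Col6a3 (0.92), Ccdc80 (0.92) and Prss23 (0.92). Since these genes were picked for their likeness over the same arrays, their group means are a description: with GW4064 they ran from 5.10 (Prss23) to 6.71 (Vim) in WT and from 6.88 (Ahnak) to 8.06 (Vim) in whole-body FXR KO.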

How the data were processed

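Liver RNA was hybridised to 18 Affymetrix arrays, 3 for each of 6 groups. The deposited values are log2 expression from RMA, computed by the authors with a version that is not given in the sources used here; they were used unchanged. RMA corrects background, normalizes by quantiles and summarises probe sets by median polish, and no detection calls come with it. In the platform annotation, 1 gene symbol stands beside 20393 of 22690 probe sets, several stand beside 691 and none beside 1606.

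Each of 12394 genes was represented by its brightest probe set and fitted with lmFit and eBayes of limma 3.58.1 (R 4.3.3), with a mean per group and 12 residual degrees of freedom. Tests were two-sided, and p-values were adjusted over all genes (Benjamini-Hochberg) and called under 0.05. The fit was tested on simulated data. A further 5 comparisons were added after values had been seen: each KO against WT with GW4064, whole-body against liver FXR KO with each treatment, and the difference of their GW4064 effects.

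The members, the 20 gene lists and the tests were chosen with earlier results of these data known. Named genes are the members, Nr1h4, up to 3 genes per list past the threshold in a comparison by smallest adjusted p, and the 6 genes most like the median member profile; Mmp13, Cygb and Lrat were chosen after their values were seen. A second probe set was tested over all probe sets. Motifs were matched in Python 3.11.15. Alternatives were other scaling, probe set, filter and variance choices, array weights, a fit on the compared groups, the replicate block, the methods' t-test, and leaving out arrays. The number of arrays limits the precision.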

Additional observations from a re-analysis of the deposited data

Results flagged for a closer look

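The 2 collagen genes Col1a2 and Col3a1 had GW4064 differences of opposite sign in the KO genotypes, with the arrays of each treatment apart in both. They were found by searching the 10 genes for this pattern, and its share over all genes was not counted. Because the 2 genes varied together over the 18 arrays (Pearson's r = 0.95), they are not separate observations. Col1a2 was -0.42 with GW4064 against vehicle in liver FXR KO, where all 3 GW4064 arrays were below the vehicle arrays, and 0.46 in whole-body FXR KO, where all 3 were above them. Col3a1 was -0.95 in liver FXR KO and 1.02 in whole-body FXR KO, likewise without overlap. The difference between these effects, tested with limma over all genes, was 0.88 for Col1a2 (SE 0.23, adjusted p = 0.616) and 1.97 for Col3a1 (SE 0.64, adjusted p = 0.902), so neither passed, and 4 of the 10 genes were at an unadjusted p under 0.05, against 4.87% of all genes. With 3 arrays per group, no group was large enough for a check of single outlying samples.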

How the results depend on the processing

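Over 29 alternative settings, 2178 values of single genes were recomputed: 2056 kept their direction and side of the threshold, 30 fell short of it, 20 passed it and 72 changed direction. Those 72 belonged to 25 of 120 differences, none of them past the threshold before or after, and the largest of the 25 was 0.26 in size; the cause was not tested. Over single left-out arrays they ran, for liver FXR KO against WT with vehicle, from -0.21 to 0.026 (Des), -0.022 to 0.069 (Timp1) and -0.30 to 0.12 (Acta2), and with GW4064 from -0.014 to 0.14 (Des) and -0.054 to 0.040 (Timp1). For whole-body FXR KO against WT they ran from -0.23 to 0.010 (Des) and -0.034 to 0.25 (Col1a1) with vehicle and from -0.0098 to 0.20 (Des) with GW4064. For whole-body against liver FXR KO they ran from -0.42 to 0.072 (Col3a1), -0.028 to 0.24 (Col1a2) and -0.077 to 0.034 (Des) with vehicle, and from -0.062 to 0.11 (Des) and -0.051 to 0.49 (Acta2) with GW4064. For GW4064 against vehicle they ran from -0.26 to 0.10 (Lum) and -0.31 to 0.18 (Acta2) in liver FXR KO, and from -0.083 to 0.32 (Lum), -0.12 to 0.060 (Des) and -0.43 to 0.020 (Acta2) in whole-body FXR KO. The GW4064 effect in liver FXR KO minus that in WT ran from -0.11 to 0.18 (Col1a1), -0.14 to 0.19 (Col1a2), -0.49 to 0.60 (Col3a1), -0.090 to 0.46 (Lum) and -0.088 to 0.019 (Timp1), and whole-body minus liver FXR KO from -0.046 to 0.13 (Des) and -0.37 to 0.18 (Acta2). Array weights turned the liver FXR KO minus WT effect on Col1a1 (-0.090), Col1a2 (-0.071) and Col3a1 (-0.087), GW4064 on Acta2 in liver FXR KO (0.062) and Des in whole-body FXR KO (0.012), and Col3a1 in whole-body against liver FXR KO with vehicle (0.014). The mean of probe sets turned the liver FXR KO minus WT effect on Col1a2 (-0.055) and Col3a1 (-0.049), GW4064 on Acta2 in whole-body FXR KO (0.052) and its difference from liver FXR KO (0.14), Des in liver FXR KO against WT with GW4064 (-0.032) and Col1a2 in whole-body against liver FXR KO with vehicle (-0.024). Without the 2 arrays of widest spread, the liver FXR KO minus WT effect was -0.11 on Col1a1, -0.14 on Col1a2, -0.49 on Col3a1 and -0.090 on Lum, GW4064 in whole-body FXR KO gave 0.060 for Des and 0.020 for Acta2, and its difference from liver FXR KO was 0.084 for Acta2. Des in whole-body against liver FXR KO with GW4064 was -0.0055 by median centring and -0.0061 by quantile normalization.

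Fitted on the compared groups alone, 2 of the 10 genes passed in whole-body FXR KO against WT with vehicle, 2 with GW4064, and 2 in whole-body against liver FXR KO with vehicle (Dcn and Reln). Over all 12394 genes these fits gave 125, 69 and 184 calls, against 141, 575 and 84 in the main fit. With array weights the counts were 3 (whole-body FXR KO against WT, vehicle) and 1 (whole-body against liver FXR KO, vehicle), while over all genes they were 203 and 260. The medians with array weights were 0.81 (whole-body FXR KO against WT, GW4064) and 0.38 (its GW4064 effect minus that of WT). The mean of probe sets gave 1 of the 10 genes in liver FXR KO against WT with GW4064, Pdgfrb, and 141 calls over all genes. The methods' t-test after adjustment gave 0 of the 10 genes in whole-body FXR KO against WT with vehicle and with GW4064, and 0 against liver FXR KO with GW4064. Over all genes that test gave 5, 1 and 0 calls, so it could hardly pass any of the 10. Without the 2 arrays of widest spread, 3 of the 10 genes passed in whole-body FXR KO against WT with vehicle and 2 in whole-body against liver FXR KO with vehicle, while 266 and 134 did over all genes. The medians without these 2 arrays were 0.20 (liver FXR KO against WT, GW4064) and 0.67 (whole-body FXR KO against WT, GW4064).

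For each comparison, only arrays of the compared groups were left out singly. The genes passing then ran from 0 to 1 in whole-body FXR KO against WT with vehicle. They ran from 1 to 4 in whole-body against liver FXR KO with GW4064. The medians ran from 0.77 to 1.19 (whole-body FXR KO against WT, GW4064), 0.20 to 0.51 (liver FXR KO against WT, GW4064), 0.067 to 0.40 (whole-body against liver FXR KO, vehicle), 0.33 to 0.69 (GW4064 effect, whole-body FXR KO minus WT) and 0.15 to 0.46 (the same, whole-body minus liver FXR KO). Where 2 arrays were left in a group, they were assumed to vary like the other groups. Over all genes, the 575 calls between whole-body FXR KO and WT with GW4064 ran from 262 without WT GW4064 replicate 1 to 787 without replicate 3, and from 1 by the adjusted t-test to 802 with every probe set; the 24 calls of GW4064 in WT ran from 1 to 268 over left-out arrays. The filter on low values left out Timp1.

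In 0 of 9 comparisons was the correlation of same-numbered samples' deviations from their group means over 0.1 in all 3 pairs (r from -0.23 to 0.34 over all pairs), so the number was not taken to pair the samples. With the replicate number as a block, 1 of the 10 genes passed in whole-body against liver FXR KO with vehicle, Dcn (adjusted p = 0.0411), where 0 did without it, and Reln passed in whole-body FXR KO against WT with GW4064 (adjusted p = 0.0381). Over all genes the block gave 91 and 639 calls in these comparisons, against 84 and 575 without it.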
